A study of Mus musculus with 10 samples.

Results

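The leukocyte adhesion genes Icam1, Icam2, Vcam1, Sele, Selp and Cd44 were followed through a TNF-alpha time course in Sirt6 knockout and wild-type mouse samples. They were found as the 14 spots that the platform annotation gives to exactly 1 of these symbols, out of 38784 spots on the array, and make up 6 of the 14365 genes tested. Icam1, Icam2, Sele and Selp had 1 probe each, Vcam1 had 2 and Cd44 had 8, and each of the 14 probes had a value on all 10 arrays. The samples were Sirt6 knockout (KO) RNA at 0, 1.5, 6 and 24 h of TNF-alpha and wild-type (WT) RNA at the same times, with 2 arrays (a and b) per genotype at 0 h and 1 array at each later time. Each sample, in Cy5, shared its array with universal mouse reference RNA, which was in Cy3. The labels do not name the cells, their strain, the knockout allele or the dose of TNF-alpha. They do not say whether a and b came from separate cultures, so that errors and p-values reflect the scatter of these arrays, which may be technical. A value is the log ratio of sample to reference, read as log2 and centred on the array's median over genes. Neither the base nor the direction of the ratio is stated. Such ratios compare samples for 1 probe and do not rank 1 gene's level against another's.

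Adhesion molecules hold circulating leukocytes to a vessel wall. Selectins catch glycans on passing leukocytes and let them roll, after which immunoglobulin-family ligands on the vessel bind leukocyte integrins and arrest the cells. In endothelial cells TNF-alpha activates NF-kB, which binds the promoters of Icam1, Vcam1 and Sele and raises their transcripts, whereas Icam2 is known as a largely constitutive endothelial gene. Sirt6 encodes a chromatin-bound deacetylase that has been described as a restraint on NF-kB at its target promoters, and the design addresses whether its loss alters the response of such targets.

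The windows of 250 bases before the start of Icam1 and of Sele are shown because the TNF-alpha question is put to these promoters and because both hold the 9-letter string GGANNTTCC, a form of the NF-kB element in which N is any base. The string, in capitals below, was searched on both strands after the windows had been seen. They are RefSeq sequences of build GRCm38.p6, 5′ to 3′ on the plus strand, at chr9:21015690-21015939 for Icam1 and chr1:164047984-164048233 for Sele.
Icam1: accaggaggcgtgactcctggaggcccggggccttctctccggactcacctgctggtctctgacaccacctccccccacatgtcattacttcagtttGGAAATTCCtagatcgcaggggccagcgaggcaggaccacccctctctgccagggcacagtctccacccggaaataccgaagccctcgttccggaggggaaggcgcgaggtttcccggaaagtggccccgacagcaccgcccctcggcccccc
Sele: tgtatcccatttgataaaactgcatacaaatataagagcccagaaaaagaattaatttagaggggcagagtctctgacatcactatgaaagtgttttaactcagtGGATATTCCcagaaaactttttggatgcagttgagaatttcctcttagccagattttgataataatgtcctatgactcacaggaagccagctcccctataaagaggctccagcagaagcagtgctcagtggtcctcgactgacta
Counted from the gene's start, the match lies at -153 to -145 in Icam1, where the letters match on either strand, and at -145 to -137 in Sele. Of 32851 such mouse windows 1178 (3.59%) hold the string. Windows were at hand for 4 members, and those of Selp and Cd44 do not hold it. The usual kappaB consensus was in none of the 4 windows and in 3.9% of all windows.

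Before the members, the arrays themselves were checked against their labels. Sirt6 was lower on the KO arrays at 0, 1.5 and 6 h (-1.16 to -0.76) than on the 5 WT arrays (-0.16 to 0.07), but the 24 h array with the KO label had -0.05, inside the range of the WT arrays, and each value taken from it carries this doubt. It is called the nominal KO 24 h array here. Ccl2, a monocyte chemokine and NF-kB target, marked the treatment on each array, with 2.32 to 2.76 on the 3 treated KO arrays, 2.11 to 2.77 on the 3 treated WT arrays and -0.60 to -0.28 on the 4 untreated arrays. The KO 0 h arrays had a correlation of 0.598 over spots, and the WT 0 h arrays at 0.782. KO 0 h array b had the fewest values (36822, against 38221 to 38556 on the others) and the widest spread (SD 0.983, against 0.551 to 0.833). The number of arrays limits the precision, and a treated array has no replicate.

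Icam1 encodes the ligand of the leukocyte integrins LFA-1 and Mac-1. Its centred log2 ratio was -1.33 and -1.94 on the KO 0 h arrays, 0.010 and 0.17 on the KO arrays at 1.5 and 6 h, and -0.029 on the nominal KO 24 h array. On the WT arrays it was -0.90 and -0.51 without TNF-alpha and -0.54, -0.25 and -1.89 at 1.5, 6 and 24 h. In KO the 3 treated arrays lay close together and above both 0 h arrays. In WT the 1.5 h value fell between the 0 h arrays, the 6 h value above them and the 24 h value below them. Relative to the mean at 0 h (KO -1.63 ± 0.43 and WT -0.71 ± 0.27, SD, n = 2 each), the KO differences were 1.64, 1.81 and 1.60 at 1.5, 6 and 24 h, and the WT differences 0.17, 0.46 and -1.18. Among the 6 genes Icam1 alone stood at least 1 log2 unit above KO 0 h at 1.5 h (as did 2.95% of all genes) and at 6 h (4.67%), and Icam1, Icam2 and Sele did so on the nominal KO 24 h array (5.19%). No member stood that far above WT 0 h at 1.5, 6 or 24 h (0.32%, 1.1% and 1.83% of genes), and Icam1 and Sele were at least 1 unit below it on the WT 24 h array (2.8%).

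Icam2, a second ligand of LFA-1, had log2 ratios of -1.56 and -1.33 on the KO 0 h arrays, -0.80 and -0.89 on the KO arrays at 1.5 and 6 h, and -0.12 on the nominal KO 24 h array. The WT arrays gave -0.64 and -0.46 before treatment, and -0.80, -1.15 and -0.52 at 1.5, 6 and 24 h. All 3 treated KO arrays were above both KO 0 h arrays. In WT the 1.5 and 6 h arrays were below both 0 h arrays and the 24 h array lay between them. At 1.5 h KO minus WT was -0.0037, so that the genotypes, 0.89 apart at 0 h, had nearly the same value there.

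Vcam1 encodes the ligand of the integrin VLA-4. The mean of its 2 probes was -0.69 and -0.25 on the KO 0 h arrays, -0.077 and 0.27 on the KO arrays at 1.5 and 6 h, and -0.084 on the nominal KO 24 h array. On the WT arrays it was -0.31 and -0.33 before treatment, and 0.23, 0.039 and -0.46 at 1.5, 6 and 24 h. The treated KO arrays were above the KO 0 h arrays, whereas the WT 24 h array lay below both WT 0 h arrays. Icam1, Icam2 and Vcam1 thus had all 3 treated arrays above both 0 h arrays in KO (3 of 6, and 12.9% of all genes), and none of the 6 had this in WT (15.3%) or had all treated WT arrays below (16.4%). This mean joins probes that did not move together (r = -0.048 over the 10 arrays). Probe 5542 gave -0.46 and -0.62 on the KO 0 h arrays, then 0.27, 0.20 and -0.085 at 1.5, 6 and 24 h, and on the WT arrays -0.60 and -0.81, then 0.36, 0.26 and -0.0080. On that probe the treated arrays were above the 0 h arrays in both genotypes, with the highest value at 1.5 h and the lowest treated value at 24 h in each. Probe 23934 gave -0.92 and 0.12 on the KO 0 h arrays, then -0.42, 0.34 and -0.084, and on the WT arrays -0.010 and 0.14, then 0.095, -0.18 and -0.92. On this second probe treated and untreated arrays overlapped in both genotypes.

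**Figure D1:**
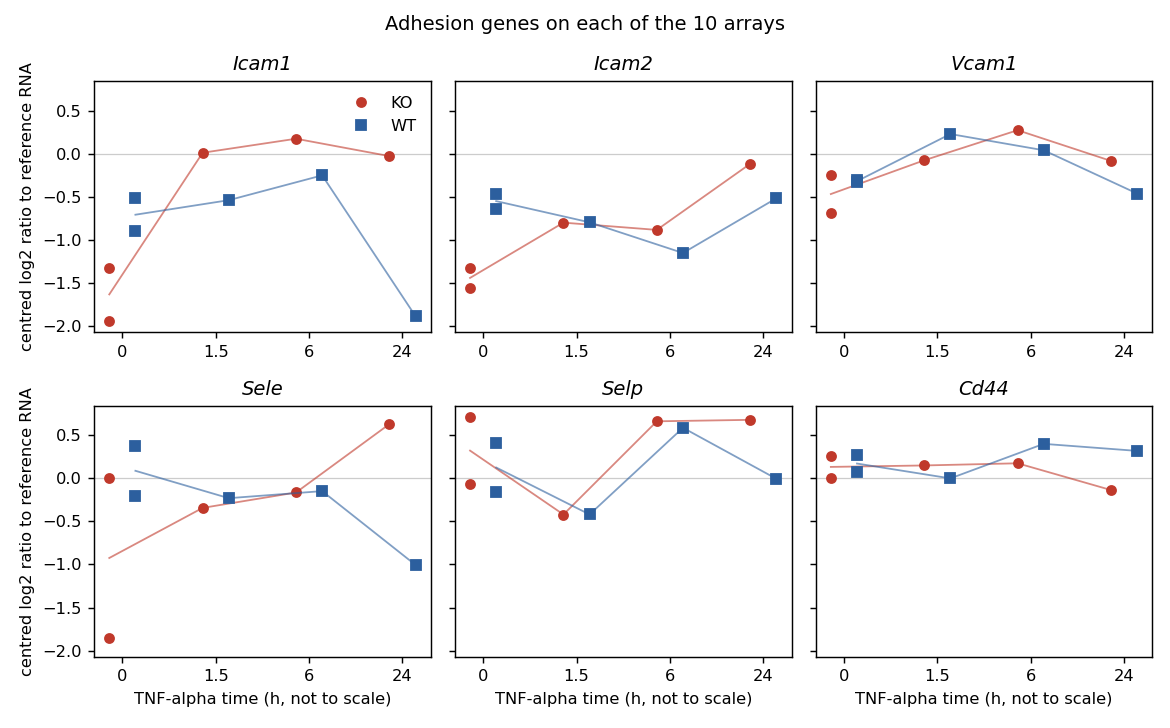
Centred log2 ratio of sample to reference RNA (vertical axis) for the 6 genes at 0, 1.5, 6 and 24 h of TNF-alpha (horizontal axis, evenly spaced), with 1 point per array, KO as red circles left of WT as blue squares, and lines through the mean at each time. Icam1 lies at -1.33 and -1.94 on the KO 0 h arrays and between -0.029 and 0.17 on the treated KO arrays, and the WT 24 h array has the lowest WT value, -1.89.

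Sele encodes E-selectin, which endothelial cells make when activated. Its log2 ratio was 0.0050 and -1.86 on the KO 0 h arrays, -0.34 and -0.17 on the KO arrays at 1.5 and 6 h, and 0.63 on the nominal KO 24 h array. The WT arrays had -0.20 and 0.38 before treatment, and -0.23, -0.15 and -1.01 at 1.5, 6 and 24 h. The KO arrays overlapped between treated and untreated, and so did the WT arrays. The KO 0 h arrays differed by 1.86, a gap that 1.83% of genes exceed, so that any Sele value set against KO 0 h rests on array b. The 1.5 and 6 h values of the genotypes were within 0.12 of each other (KO minus WT -0.11 and -0.016).

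Selp encodes P-selectin, which is stored in granules of endothelial cells and platelets. It lay at 0.71 and -0.068 on the KO 0 h arrays, -0.42 and 0.66 on the KO arrays at 1.5 and 6 h, and 0.68 on the nominal KO 24 h array. The WT arrays had -0.15 and 0.40 before treatment, and -0.42, 0.59 and -0.0060 at 1.5, 6 and 24 h. The lowest value of each genotype was at 1.5 h, and treated and untreated arrays overlapped in both.

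Cd44 encodes a receptor for hyaluronan that also binds E-selectin. The mean of its 8 probes stayed within a range of 0.54, the narrowest of the 6 genes: 0.26 and 0.0041 on the KO 0 h arrays, 0.15 and 0.17 on the KO arrays at 1.5 and 6 h and -0.14 on the nominal KO 24 h array, against 0.076 and 0.27 on the WT 0 h arrays and -0.0013, 0.40 and 0.32 on the treated WT arrays. The flat mean hides probes that disagree. Over the 10 arrays their 28 pairwise correlations ran from -0.614 to 0.658 with a median of -0.14, and 16 were negative. Probe 12070 gave -0.13 and -0.41 on the KO 0 h arrays and 0.16, -0.63 and -2.78 at 1.5, 6 and 24 h, whereas the WT arrays ran from 0.032 to 0.75. On probe 12609 the 24 h arrays were lowest in both genotypes (-1.45 in KO and -1.42 in WT, against 0 h values of 0.081 and -0.42 in KO and -0.15 and -0.20 in WT). On probe 7225 the 24 h array was the highest of the WT arrays at 0.83, against -0.93 and -0.32 at 0 h, while KO had 0.62 at 24 h against -0.082 and 0.62 at 0 h. Probe 21420 was well above the reference RNA on every array, at 1.41 to 2.39 in KO and 1.44 to 2.18 in WT. Which transcripts of Cd44, a gene with many splice forms, each probe reads is not given in the files.

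**Figure D2:**
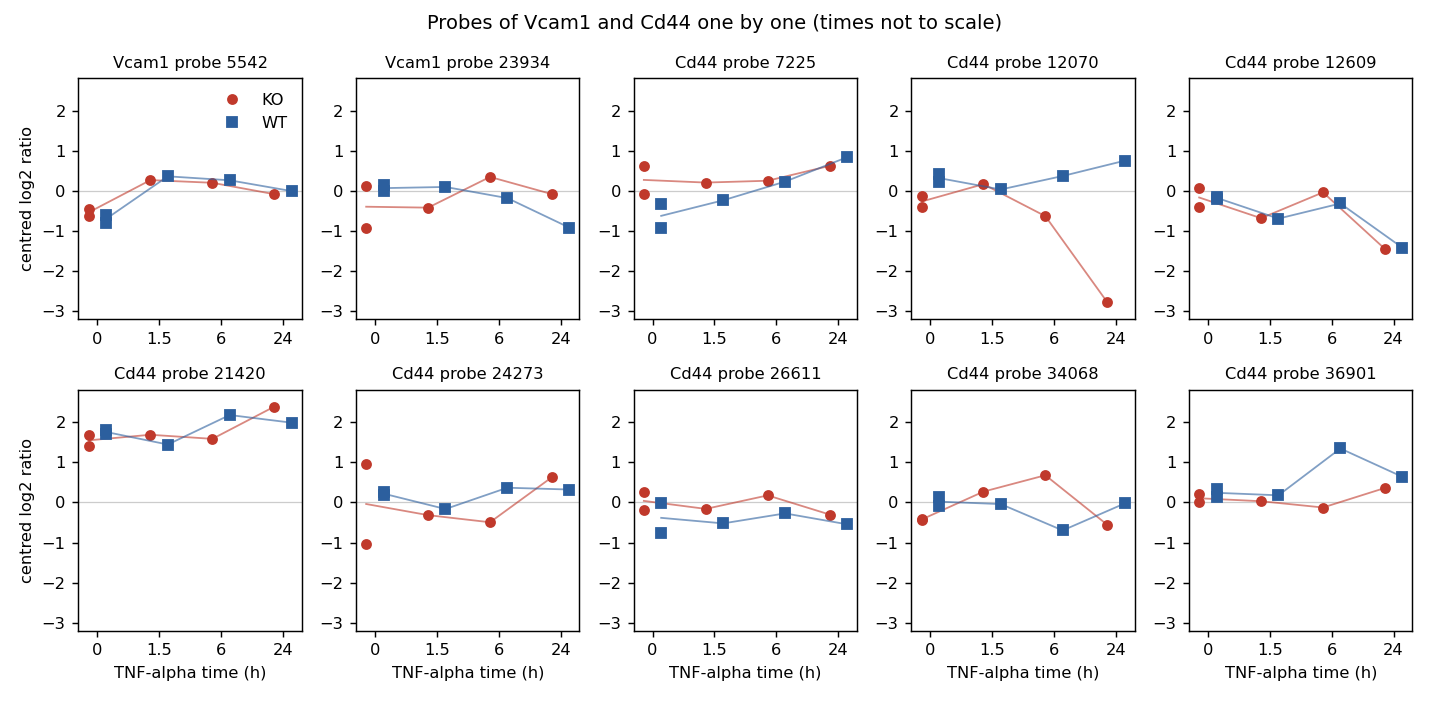
Centred log2 ratio (vertical axis) by time of TNF-alpha in h (horizontal axis, evenly spaced) for the 2 probes of Vcam1 and the 8 of Cd44, with 1 point per array, KO as red circles left of WT as blue squares, and lines through the means. Vcam1 probe 5542 is higher on the treated arrays in both genotypes, and Cd44 probe 12070 is at -2.78 on the nominal KO 24 h array.

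The TNF mean response, the mean of 1.5, 6 and 24 h minus 0 h over both genotypes, put Icam1 and Vcam1 highest among the 6 genes on all 10 arrays, and 0 of 6 passed the threshold of an adjusted p under 0.05 over all genes (limma, 0.0139% of genes passed). Icam1 was at log2 0.75 (SE 0.40, adjusted p = 0.975, 1.68-fold) and Vcam1 at 0.38 (SE 0.16, adjusted p = 0.975, 1.30-fold). The exact two-sided permutation p, with treatment labels permuted within genotype, was 0.19 for Icam1 and 0.06 for Vcam1, where 0.01 is the smallest possible. Icam2 was at 0.28, Sele at 0.21, Selp at -0.043 and Cd44 at -0.0010. Single arrays moved the value of Icam1, to 0.40 with the nominal KO 24 h array left out, 0.42 with KO 0 h array b left out and 1.10 with the WT 24 h array left out, and the order of the genes did not hold. Sele (0.57) was above Vcam1 (0.46) without the WT 24 h array, and Sele (0.49) and Icam2 (0.45) were above Vcam1 (0.40) without WT 0 h array b. Vcam1 was the 1 gene of the 6 below 0.05 before adjustment (unadjusted p = 0.0438), which 2.15% of all genes reached on the higher side. The SE of Icam1 was larger than that of Vcam1, and a difference in response between the genotypes counts as error in this model. Among the NF-kB response reference genes, chosen with their behaviour here known, Ccl2 (2.95, SE 0.17) and Ccl7 (1.51, SE 0.14) passed and the median of the 14 was 0.86, against 0.018 over all genes.

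Fitted alone, Vcam1 probe 5542 had a TNF mean response of 0.79 (SE 0.14, adjusted p = 0.655, unadjusted p = 0.000371), and probe 23934 one of -0.028 (SE 0.29). The treated arrays of probe 5542 were above the 0 h arrays in both genotypes, as for 223 of 21197 probes (1.05%). The responses of probe 5542 were 0.94 at 1.5 h, 0.85 at 6 h and 0.58 at 24 h (SE 0.19 each). The probe was singled out after its values were seen. The TNF mean response of the Cd44 probes ran from -0.60 to 0.49. Probe 12609 was at -0.60 (SE 0.15, adjusted p = 0.958, unadjusted p = 0.0041), and probe 7225 at 0.49 (SE 0.25).

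By time, 0 of 6 genes passed at 1.5 h (0.00696% of genes did), at 6 h (0.0139%) or at 24 h (0.0139%). At an unadjusted p under 0.05 there was Selp at 1.5 h (-0.64, SE 0.28, unadjusted p = 0.0457, where 2.51% of genes were lower), Vcam1 at 6 h (0.55, SE 0.22, unadjusted p = 0.0324, where 1.22% were higher) and none at 24 h, a level that 7.08% of genes reached there. Vcam1 was at 0.47 (SE 0.22) at 1.5 h and 0.12 (SE 0.22) at 24 h. Icam1 was at 1.13 (SE 0.53) at 6 h, a size that 0.599% of genes exceeded, and at 0.21 (SE 0.53) at 24 h. The 24 h value of Icam1 is a mean of opposite ones and became -0.83 when the nominal KO 24 h array was left out and 1.25 when the WT 24 h array was. The 3 times share the same 0 h arrays and are not independent of each other.

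**Figure D3:**
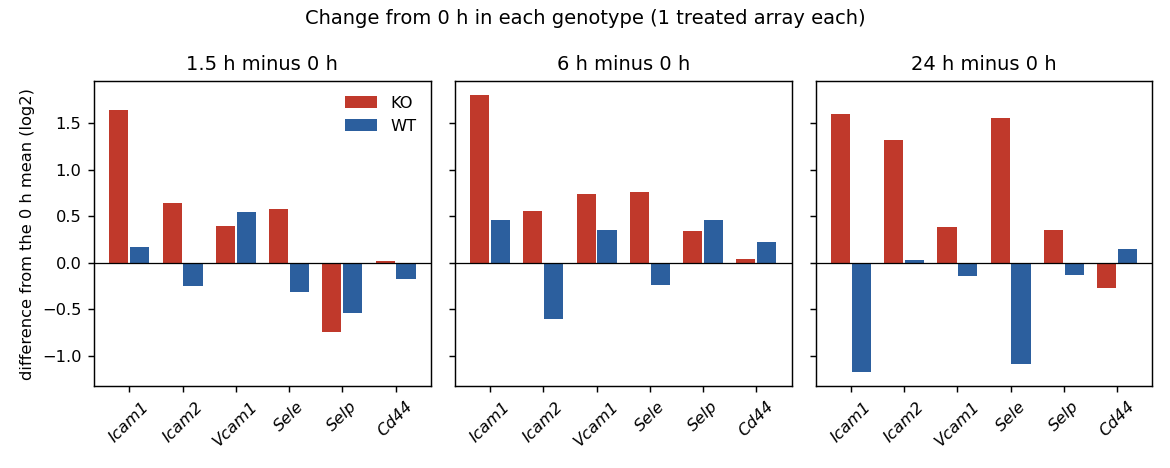
Difference from the mean of the 0 h arrays (log2, vertical axis) at 1.5, 6 and 24 h for each gene, with KO bars in red left of WT bars in blue, each from 1 treated array. Icam1 stands at 1.64, 1.81 and 1.60 in KO and at 0.17, 0.46 and -1.18 in WT, while Vcam1 at 1.5 h is 0.39 in KO and 0.55 in WT.

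Without TNF-alpha, Icam1 and Icam2 had lower values in KO than in WT, short of the threshold. On both genes the 2 KO 0 h arrays lay below both WT 0 h arrays, as for 28.8% of all genes, so 2 of 6 is near the share over all genes. KO minus WT at 0 h was -0.92 for Icam1 (SE 0.29, adjusted p = 0.237, 1.90-fold lower) and -0.89 for Icam2 (SE 0.21, adjusted p = 0.194, 1.85-fold lower), with unadjusted p values of 0.0221 and 0.0066. Neither passed, nor did any of the 6 (0% of genes passed, and 9.5% were lower at an unadjusted p under 0.05). Sele was at -1.01 (SE 0.63), Vcam1 at -0.15 (SE 0.23, 95% interval -0.73 to 0.43), Selp at 0.20 (SE 0.35) and Cd44 at -0.039 (SE 0.21, interval -0.57 to 0.49). The size depended on the scaling of the arrays. Icam1 was at -0.22 and Icam2 at -0.38 with quantile normalization, and at -0.38 and -1.27 once a running median along the spot positions was subtracted.

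Averaged over time, the genotypes were not told apart on any of the 6. In the genotype average (KO minus WT, with 0 h weighing most) 0 of 6 genes passed by limma (0% of genes), and 0 of 6 had an unadjusted p under 0.05, as 9.68% of all genes did. The values ran from -0.22 for Icam2 (SE 0.23, 95% interval -0.74 to 0.29) to 0.23 for Selp (SE 0.20, -0.23 to 0.69). Vcam1 was at 0.0016 (SE 0.16, -0.36 to 0.36) and Cd44 at -0.12 (SE 0.14, -0.44 to 0.20). Icam1 was at 0.20 (SE 0.39, exact two-sided permutation p = 0.75 within times, smallest possible 0.0417). It was at -0.22 when the nominal KO 24 h array, the WT 24 h array or both were left out. In this model a lone 24 h array is taken up by its time term.

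For Icam1, Icam2 and Sele the change from 0 h was more positive in KO than in WT at each time, though none of them passed. This interaction is the change in KO minus the change in WT. For Icam1 it was 1.48 at 1.5 h, 1.35 at 6 h and 2.78 at 24 h (SE 0.50 each, adjusted p = 0.999, 0.337 and 0.182). For Icam2 it was 0.89, 1.16 and 1.29 (SE 0.36 each, adjusted p = 0.999, 0.294 and 0.284). None of the 6 genes passed at 1.5 h (0% of genes did), 6 h (0.00696%) or 24 h (0.0278%). Before adjustment Icam1 was under 0.05 at 1.5 h (unadjusted p = 0.0299, where 2.23% of genes were positive), and both Icam1 and Icam2 were at 6 h (unadjusted p = 0.0406 and 0.021, 7.57%) and at 24 h (unadjusted p = 0.0021 and 0.0138, 7.46%). The interaction of Sele was 0.90 at 1.5 h, 1.00 at 6 h and 2.65 at 24 h (SE 1.08 each, adjusted p = 0.999, 0.714 and 0.389). Without KO 0 h array b it was -0.031, 0.066 and 1.72. At 24 h the nominal KO array was the highest and the WT array the second lowest of the 10.

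Averaged over the 3 times, a comparison added after the values had been seen, the mean interaction was 1.87 for Icam1 (SE 0.37, adjusted p = 0.272, unadjusted p = 0.0034) and 1.11 for Icam2 (SE 0.27, adjusted p = 0.290, unadjusted p = 0.0076). At an unadjusted p under 0.05 these were 2 of 6, where 7.61% of all genes were positive, and 0 of 6 passed (0% of genes). Sele was at 1.51 (SE 0.81, adjusted p = 0.479), Vcam1 at 0.25 (SE 0.30, 95% interval -0.50 to 1.00), Selp at 0.057 (SE 0.45) and Cd44 at -0.14 (SE 0.27). The sizes depended on the scaling of the arrays. With quantile normalization Icam1 was at 1.21, Icam2 at 0.66 and Vcam1 at 0.040, and once the running median along the spots was subtracted Icam1 was at 1.26, Sele at 0.72 and Selp at -0.93 (SE 0.19), the reverse of its sign. With both 24 h arrays left out Icam1 was at 1.41 and Icam2 at 1.02 (adjusted p = 0.453 each). The same KO 0 h arrays enter the genotype difference at 0 h and the interaction with opposite sign, and the 2 results are not independent. Without KO 0 h array a, 3 members passed (Icam1 at 2.17, Icam2 at 1.00 and Sele at 2.44), as did 2378 genes in all (16.6%). Without array b Icam1 passed (1.56) among 404 genes (2.81%) and Sele was at 0.58. In both cases the spread came from the WT 0 h pair alone.

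The mean of the 8 Cd44 probes again covers opposite values. Fitted alone, probe 12070 had an interaction of -2.94 at 24 h (SE 0.40, adjusted p = 0.146, unadjusted p = 0.00061), which uses the nominal KO 24 h array. At 6 h probe 34068 was at 1.82 (SE 0.38, adjusted p = 0.225) and probe 36901 at -1.34 (SE 0.39, adjusted p = 0.292). These 3 probes were singled out after their values were seen, and none passed.

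**Figure D4:**
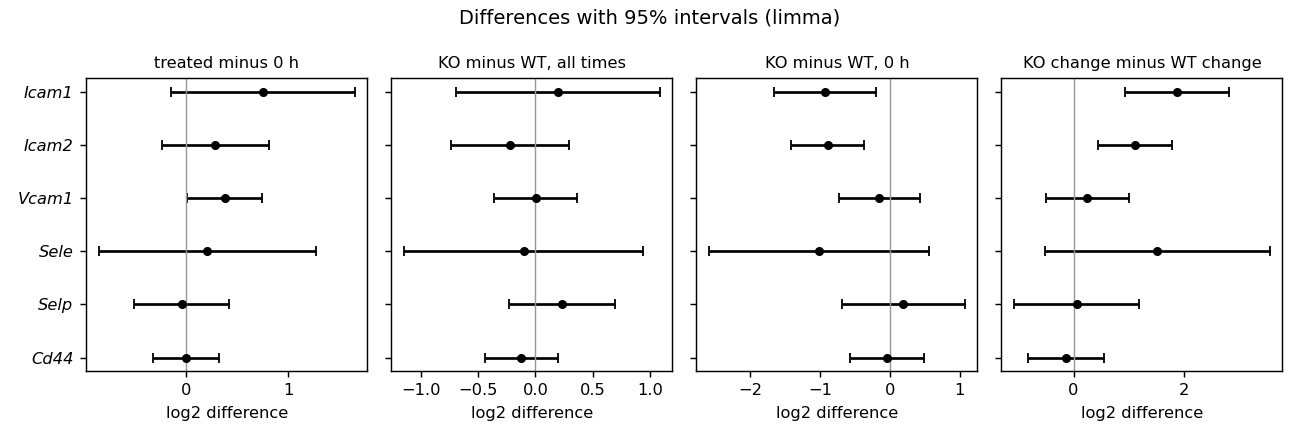
Log2 difference (horizontal axis) with its 95% interval from limma for the 6 genes in the TNF mean response, the genotype average, KO minus WT at 0 h and the mean interaction, from left to right. The intervals of Icam1 and Icam2 lie below 0 at 0 h and above 0 in the mean interaction, and no gene passed after adjustment over all genes.

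The genes closest to Icam1 and Vcam1 across the 10 arrays were sought by Pearson correlation over all genes, as a description. Nearest to Icam1 were Dmrt1 (0.96), Wars2 (0.91), Ticam2 (0.90), Defb38 (0.90) and Pdgfb (0.89), and nearest to Vcam1 were Ankrd6 (0.93), Ap1b1 (0.93), Retreg1 (0.89), Adam17 (0.89) and Eddm3b (0.89). Dmrt1, Ticam2, Defb38 and Pdgfb have 1 probe each, as Icam1 does. Vcam1 is here the mean of 2 probes that did not move together (r = -0.048), so its correlations are those of a mixed profile. Among the members Icam1 went most with Sele (0.72) and Vcam1 (0.69), while Vcam1 and Sele were at 0.13. The points share their arrays. Icam1 and Sele both had their lowest KO value on 0 h array b and their lowest WT value at 24 h.

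Of 21 listed integrin and selectin partners 19 were measured. The list holds integrin chains, selectin ligands and enzymes that build their glycans, so its counts are not of leukocyte receptors alone. In each of the 10 comparisons 0 of 19 passed (limma). In the TNF mean response none had an unadjusted p under 0.05, and their median was 0.052, against 0.018 over all genes. In the mean interaction 4 of 19 were higher and 3 of 19 lower at that level, where 7.61% of all genes were higher and 5.51% lower. Among them Itgb2, the shared chain of LFA-1 and Mac-1, was at 1.24 (SE 0.36) and Itgb7, a chain of a Madcam1 receptor, at 2.27 (SE 0.49). Itgal, the other chain of LFA-1, was at 0.043 (SE 0.37). Itgam, the other chain of Mac-1, was at -1.30 (SE 0.38). Its interaction was -0.35 at 1.5 h, 0.38 at 6 h and -3.93 at 24 h, where WT had 3.15 and the nominal KO 24 h array -0.71. In the mean interaction Itgb1 and Itga4, the chains of the Vcam1 receptor VLA-4, were at 0.13 (SE 0.27) and 0.073 (SE 0.26). Of the other immunoglobulin-family adhesion genes 20 of 21 were measured, and Cd47 (0.59, SE 0.19) was the 1 of 20 higher at an unadjusted p under 0.05 in the TNF mean response, as 2.15% of all genes were. In the mean interaction Cadm1 (1.64, SE 0.29) was the 1 of 20 higher (7.61% of all genes) and Mcam (-0.91, SE 0.34) the 1 of 20 lower (5.51%) at that level, and Madcam1, a mucosal vessel ligand of integrins, was at 2.34 (SE 1.07). Of 15 hyaluronan and Cd44 partners, the matrix proteases Mmp14 (0.63, SE 0.21) and Mmp9 (0.62, SE 0.22) were the 2 of 15 higher at that level (2.15% of all genes) in the TNF mean response, the median being 0.042. The hyaluronan synthase Has2 was at 0.074 (SE 0.18) in that comparison, and at -0.53 (SE 0.18, adjusted p = 0.454, limma) in the genotype average. In the genotype average 2 of 15 were higher and 3 of 15 lower at an unadjusted p under 0.05, which 9.68% of all genes reached. In the list of shedding and junction genes Adam17, a protease that sheds Vcam1, was at 0.43 (SE 0.17) in the TNF mean response. It was the 1 of 12 higher at an unadjusted p under 0.05 (2.15% of all genes), and it did not pass. Adam8 was at 0.44 (SE 0.20), and the median of the 12 measured was 0.059.

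Markers of other cells were set beside these values. The 15 endothelial markers had a median of -0.18 to 0.38 on the KO arrays and -0.18 to 0.049 on the WT arrays, close to each array's own median, but a ratio to a reference RNA does not show whether endothelial cells were present. In the mean interaction the endothelial markers had a median of -0.23 with 5 of 15 positive (50.9% of all genes). At an unadjusted p under 0.05, 3 of 15 were lower (5.51%) and 0 higher (7.61%). The 3 were the junction protein Esam at -0.94, the VEGF receptor Flt1 at -0.90 and Vwf, the von Willebrand factor, at -0.84. The highest was Kdr at 0.51. The 0 h difference enters the interaction with opposite sign. At 0 h KO minus WT had a median of 0.26 with 12 of 15 positive (46.2% of all genes), Esam being at 1.23 and Vwf at 0.96. The median of the 8 leukocyte markers lay far below the reference RNA, at -2.95 to -1.97 on the KO arrays and -2.95 to -1.67 on the WT arrays. Not all of them did, as the highest marker was at -0.054 to 0.76 on the KO arrays and -0.67 to 0.81 on the WT arrays. In the mean interaction 6 of 8 leukocyte and 6 of 9 macrophage markers were positive, as were 50.9% of all genes, with medians of 0.41 and 0.26. At an unadjusted p under 0.05, 2 of 8 leukocyte markers were higher and 1 lower, and 3 of 9 macrophage markers were higher and 2 lower, against 7.61% of all genes higher and 5.51% lower. The highest were Cd3e at 3.29 (SE 0.63), Ctss at 1.95 (SE 0.34), Adgre1 at 1.94 (SE 0.28) and Cd14 at 1.57 (SE 0.34). The lowest was Cd79a at -1.07 (SE 0.25) among the leukocyte markers and Itgam at -1.30 (SE 0.38) among the macrophage markers. At 0 h 2 leukocyte and 2 macrophage markers were higher in KO at that level (7.66% of all genes) and 3 of each were lower (9.5%). KO minus WT ran from -2.71 for Cd3e to 1.08 for Laptm5 among the leukocyte markers and from -1.36 for Ctss to 0.54 for Tyrobp among the macrophage markers. Platelet markers, relevant to Selp, had a median of 0.0099 in the mean interaction over 5 genes, and fibroblast markers one of -0.13 over 12. In each list 1 gene was higher (7.61% of all genes) and 1 lower (5.51%) at an unadjusted p under 0.05. These were Pf4 at 1.72 and Ppbp at -0.92 among the platelet markers, and Dcn at 1.80 and Lum at -0.73 among the fibroblast markers. None of these markers passed in the mean interaction or at 0 h, and their part in the values of the adhesion genes was not tested. In bulk RNA, fewer cells of a type and less RNA per cell cannot be told apart.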

How the data were processed

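Total RNA was hybridised on 10 two-colour arrays, with the sample in Cy5 and a universal mouse reference in Cy3, per the labels. The authors deposited 1 normalized log ratio per spot (-8.23 to 8.97), and the deposited values were read as log2. The log base, the ratio's direction, the normalization and the software were not given in the sources used here. The array medians ran from -0.255 to -0.004. No signals or flags were at hand, so dim probes could not be filtered.

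Spots with values on all arrays were kept (36113 of 38784). The platform table gave 1 symbol for 22204 probes, none gave several, and 16580 were unnamed. Probes were averaged by gene and arrays centred on their median over genes, and 133 of 143 listed genes were measured. Tests were two-sided in limma 3.58.1 (R 4.3.3; lmFit, eBayes) over 14365 genes, with a Benjamini-Hochberg adjusted p under 0.05. The TNF responses and the genotype average were fitted with genotype and time as additive terms (5 residual df). Genotype at 0 h and the interactions came from 1 mean per group (2 residual df), so the single treated arrays are assumed to vary like the 0 h pairs. Alternatives were no centring, quantile normalization, inclusion of probes measured on 8 or 9 arrays, single probes, a robust prior, the letters as a block, subtraction of a running median over 101 spots, the other model and each array left out, and, added after seeing the data, array weights (additive fit only), no 24 h arrays and the mean interaction. The fits were tested on simulated data. Members, lists and alternatives were chosen with earlier results of these data known. By the rule for named genes the 6 members, Sirt6, Ccl2, the 5 genes most correlated with Icam1 and with Vcam1, and up to 4 members per list with the largest change could be named. Itgal, Itgb1, Itga4 and Has2 were named for their role after their values were seen.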

Additional observations from a re-analysis of the deposited data

How the results depend on the processing

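With all 10 arrays, 0 of 6 members passed by limma in each of the 10 comparisons and in each alternative that kept every array, with each probe alone included. Before adjustment 0 to 2 members per comparison were under 0.05. Calls arose when a KO 0 h array was left out. Without KO 0 h array a, 3 members passed at 0 h among 3264 genes (22.7%), with Icam1 at -1.23 (adjusted p = 0.0169), Icam2 at -0.77 and Sele at -1.94. Without it 2 passed in the interaction at 6 h among 2581 genes (18%), 2 in that at 24 h among 2004 (14%) and 3 in the mean interaction among 2378 (16.6%). Without KO 0 h array b, 1 passed in the interaction at 24 h (Icam1, 2.48, among 810 genes, 5.64%) and 1 in the mean interaction, and 0 at 0 h and in the interaction at 6 h. In these fits the spread came from the WT 0 h pair alone. The median gap over all genes was 0.17 in that pair and 0.32 in the KO 0 h pair. With WT 0 h array a or b left out instead, the mean interaction of Icam1 was 2.06 or 1.67. The cause of the calls was not tested. The mean interaction of Icam1 was positive in every fit made, with 1.21 under quantile normalization, 1.26 with the local trend along the spots taken out and 1.41 to 2.17 with 1 array left out, and that of Icam2 ran from 1.00 to 1.23 with 1 array left out and was 0.66 under quantile normalization. Without centring, the median over all genes was -0.20 at 0 h (-0.043 with it), 0.23 in the interaction at 6 h (-0.032), 0.26 at 24 h (0.056) and 0.16 in the mean interaction (0.010).

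The values below changed sign, and none passed with either sign. The labels do not say whether the letters a and b pair the samples. Their deviations at 0 h correlated at -0.0053 over genes, which cannot decide this, and as a replicate block the letters changed no call. With quantile normalization, the genotype average was 0.015 for Icam2 and 0.044 for Sele, the TNF response at 1.5 h was -0.015 for Icam2 and -0.054 for Sele, the genotype at 0 h was 0.046 for Vcam1, and the interaction at 6 h was 0.14 for Selp. Without centring, the genotype average was -0.067 for Vcam1, the interaction at 6 h was 0.14 for Selp and 0.076 for Cd44, and the mean interaction was 0.0095 for Cd44. With the local trend over spot positions taken out, the TNF response at 24 h was -0.26 for Selp, the genotype at 0 h was 0.050 for Cd44, the interaction at 24 h was -0.76 for Selp, and the mean interaction was -0.93 for Selp. With 1 mean per group, the genotype average was 0.12 for Sele. With probes measured on at least 8 arrays, the TNF mean response was 0.0051 for Cd44. With array weights, the genotype average was -0.14 for Vcam1 and the TNF mean response was -0.055 for Sele, 0.011 for Selp and 0.015 for Cd44. With both 24 h arrays left out, the genotype average was -0.22 for Icam1 and -0.093 for Vcam1, the TNF mean response was 0.029 for Cd44, and the mean interaction was -0.16 for Selp and 0.0013 for Cd44. With the letters as a replicate block, the TNF mean response was -0.11 for Sele, the TNF response at 1.5 h was -0.19 for Sele, the TNF response at 6 h was 0.080 for Icam2 and -0.058 for Sele, and the TNF response at 24 h was -0.089 for Sele.

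The probes of Vcam1 and Cd44 gave other signs than their mean. Vcam1 probe 23934 alone gave -0.016 in the genotype average, -0.028 in the TNF mean response and -0.34 in the TNF response at 24 h. Cd44 probe 7225 alone gave 0.41 in the genotype average, 0.49 in the TNF mean response, 0.16 in the TNF response at 1.5 h, 0.91 in the TNF response at 24 h, 0.90 in the genotype at 0 h and -0.45 in the interaction at 1.5 h. Cd44 probe 12609 alone gave 0.053 in the genotype average, -0.0074 in the TNF response at 6 h, 0.0063 in the genotype at 0 h, 0.27 in the interaction at 6 h and 0.079 in the mean interaction. Cd44 probe 26611 alone gave 0.38 in the genotype average, 0.42 in the genotype at 0 h, -0.061 in the interaction at 1.5 h and 0.026 in the interaction at 6 h. Cd44 probe 34068 alone gave 0.052 in the genotype average, 0.14 in the TNF mean response, 0.32 in the TNF response at 1.5 h, 1.82 in the interaction at 6 h and 0.83 in the mean interaction. Cd44 probe 21420 alone gave 0.23 in the TNF mean response, 0.54 in the TNF response at 24 h, 0.61 in the interaction at 24 h and 0.23 in the mean interaction. Cd44 probe 36901 alone gave 0.23 in the TNF mean response, 0.33 in the TNF response at 24 h and -0.012 in the interaction at 1.5 h. Cd44 probe 12070 alone gave 0.074 in the TNF response at 1.5 h and -0.16 in the TNF response at 6 h. Cd44 probe 24273 alone gave -0.15 in the TNF response at 6 h, 0.39 in the TNF response at 24 h, 0.57 in the interaction at 24 h and 0.024 in the mean interaction. Vcam1 probe 5542 alone gave 0.16 in the genotype at 0 h, -0.23 in the interaction at 6 h, -0.24 in the interaction at 24 h and -0.24 in the mean interaction.

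With 1 array left out at a time, the genotype average ran from -0.22 to 0.46 for Icam1, -0.093 to 0.092 for Vcam1 and -0.54 to 0.32 for Sele. The TNF mean response ran from -0.32 to 0.57 for Sele, -0.20 to 0.10 for Selp and -0.070 to 0.068 for Cd44. The TNF response at 1.5 h ran from -0.40 to 0.42 for Sele and -0.25 to 0.092 for Cd44. The TNF response at 6 h ran from -0.33 to 0.28 for Icam2 and -0.27 to 0.55 for Sele. The TNF response at 24 h ran from -0.83 to 1.25 for Icam1, -0.12 to 0.36 for Vcam1, -0.86 to 1.32 for Sele, -0.17 to 0.40 for Selp and -0.27 to 0.15 for Cd44. The genotype at 0 h ran from -0.37 to 0.070 for Vcam1, -0.19 to 0.59 for Selp and -0.17 to 0.089 for Cd44. The interaction at 1.5 h ran from -0.37 to 0.064 for Vcam1, -0.031 to 1.83 for Sele and -0.59 to 0.19 for Selp. The interaction at 6 h ran from -0.51 to 0.27 for Selp. The mean interaction ran from -0.33 to 0.45 for Selp and -0.30 to 0.0013 for Cd44. The mean interaction, the array weights and the fits with both 24 h arrays left out were added after seeing the data. No alternative was left out, and the robust prior changed no sign.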
